A study of Mus musculus with 3 samples.

Results

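Small Cajal body RNAs (scaRNAs) were examined in the chromatin RNA of mouse macrophages. The members are all genes whose transcript carries the type scaRNA in the annotation used by the deposited tables, which gave 51 gene IDs of 55536 annotated genes. They fall on 15 chromosomes and carry 46 symbols, because 5 symbols (Gm23370, Gm22813, Gm25820, Gm22897 and Gm26413) each have 2 gene IDs at the same place that differ in length by 1 base. The series holds 3 libraries of ribosomal-RNA-depleted total RNA from the chromatin fraction of primary macrophages that were derived from bone marrow of the strain C57BL/6J and then treated with 100 ng/ml Lipid A, the part of bacterial lipopolysaccharide that the receptor Tlr4 senses, for 40 minutes. The 3 are labelled as biological replicates 1, 2 and 3 with an RNA input of 1 µg, 250 ng and 500 ng, and they share a donor entry, so p-values and SDs measure only the spread between these 3 libraries, which may be technical. Every library had this treatment and no untreated group is analysed here, so levels are compared between genes and between tables of the same library and nothing is said about the effect of Lipid A.

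ScaRNAs guide chemical changes in the small nuclear RNAs (snRNAs) of the spliceosome. Members with C and D boxes bind fibrillarin and direct 2′-O-methylation, members with H and ACA boxes bind dyskerin and direct pseudouridylation, and some hold both kinds of domain. They gather in Cajal bodies, nuclear bodies built on coilin, and a short sequence called the CAB box in H/ACA members is bound by Wrap53 (TCAB1), which brings the RNA there. Most mammalian scaRNAs are cut out of introns of a host gene after splicing.

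The sequences below are 5 of the 6 members of up to 300 bases with the highest mean expected counts (Gm23119, which ranks just above Gm22442, is not shown), read from the GENCODE M21 transcripts (GRCm38) and given 5′ to 3′ with T for U. Capitals mark TGATGA (the C box), CTGA (the D box), TGAG (the CAB box) and an ACA that lies 3 bases before the end. Where these letters overlap, as the D and CAB boxes and the D and C boxes can, the joined run is in capitals.
Gm25395 (chr1:87776938-87777209, plus strand) and Scarna6 (chr1:87784556-87784820, plus strand), a guide known in human cells to hold both kinds of domain, lie in introns of Atg16l1, an autophagy gene.
Gm25395: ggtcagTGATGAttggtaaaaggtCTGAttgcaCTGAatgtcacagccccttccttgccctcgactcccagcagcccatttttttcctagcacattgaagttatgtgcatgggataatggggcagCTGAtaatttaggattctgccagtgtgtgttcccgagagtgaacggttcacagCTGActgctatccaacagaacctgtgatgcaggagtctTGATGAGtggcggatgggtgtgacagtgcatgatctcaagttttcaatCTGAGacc
Scarna6: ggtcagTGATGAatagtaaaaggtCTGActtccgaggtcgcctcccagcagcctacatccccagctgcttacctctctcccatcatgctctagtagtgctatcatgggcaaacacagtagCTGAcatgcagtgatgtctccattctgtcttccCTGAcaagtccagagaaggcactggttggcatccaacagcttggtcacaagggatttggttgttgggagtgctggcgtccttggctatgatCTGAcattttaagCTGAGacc
Scarna13 (chr12:105031075-105031349, minus strand), in human cells a tandem H/ACA guide, lies in an intron of the long non-coding RNA Snhg10. Gm26083 (chr11:117077243-117077435, plus strand) lies within an exon of the long non-coding RNA Snhg20, and Gm22442 (chr11:69350518-69350661, minus strand) in an intron of Chd3, a chromatin remodeller.
Scarna13: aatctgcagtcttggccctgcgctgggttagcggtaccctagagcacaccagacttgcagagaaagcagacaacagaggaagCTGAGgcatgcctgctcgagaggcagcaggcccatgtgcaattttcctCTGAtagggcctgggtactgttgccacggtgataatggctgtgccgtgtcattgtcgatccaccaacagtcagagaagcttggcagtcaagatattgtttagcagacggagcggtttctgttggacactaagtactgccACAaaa
Gm26083: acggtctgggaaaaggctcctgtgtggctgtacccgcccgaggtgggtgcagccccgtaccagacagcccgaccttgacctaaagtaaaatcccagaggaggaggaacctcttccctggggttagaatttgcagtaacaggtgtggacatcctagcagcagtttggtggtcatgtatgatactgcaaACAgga
Gm22442: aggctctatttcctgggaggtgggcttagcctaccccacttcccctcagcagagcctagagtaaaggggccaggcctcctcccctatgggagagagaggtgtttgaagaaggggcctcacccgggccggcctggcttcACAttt
Gm25395 and Scarna6 were 61.4% identical over their length, and shared their first 12 bases, which include the C box letters, and their last 8 bases. Gm26083 and Gm22442 held none of the first 3 of these motifs on this strand and ended in ACA plus 3 bases, as did Scarna13.

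Among all 51 gene IDs, the C box letters were present in 20, the D box letters in 38, the CAB box letters in 37 and the terminal ACA in 25, searched on the RNA strand only. For the 36 members of 120 to 150 bases, the CAB box letters were found in 72.2%, against 33.8% of the 866 transcripts of the type snoRNA in the same length range and 47.9% of 32484 promoter windows of 136 bases. The terminal ACA was found in 55.6% of these members, against 24.9% of the snoRNA transcripts and 1.51% of the windows, whose base composition differs. The D box letters stood in 72.2% of the members, 74.5% of the snoRNA transcripts and 49.3% of the windows. The C box letters stood in 36.1% of the members, against 3.12% of the snoRNA transcripts and 2.72% of the windows. These members are not independent sequences. A single set of near copies holds 11 of the 13 with the C box letters and 11 of the 26 with CAB box letters. All gene IDs of that set except those of Gm22813 also have the terminal ACA. A match describes the letters and does not show that a protein binds there.

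Joining members that were at least 80% identical gave 8 such sets with 28 gene IDs, and left 23 without a near copy. The largest held 11 gene IDs of 6 symbols (Gm22813, Gm22897, Gm23370, Gm25058, Gm25820 and Gm26413). The sequences of 3 pairs of different loci are shown because reads from them can be shared between copies: Gm25820 (chr3:88693930-88694057, plus strand, an intron of Khdc4) with Gm25058 (chr11:11913621-11913748, minus strand, outside any gene), Gm23386 (chr11:19693155-19693298, minus strand, outside any gene) with Gm22442 above, and Gm25119 (chr17:7042478-7042565, minus strand) with Gm22416 (chr17:8084075-8084162, plus strand), which has the same 88 bases.
Gm25820: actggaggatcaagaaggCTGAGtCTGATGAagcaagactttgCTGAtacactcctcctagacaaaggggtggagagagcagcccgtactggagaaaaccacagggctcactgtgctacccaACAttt
Gm25058: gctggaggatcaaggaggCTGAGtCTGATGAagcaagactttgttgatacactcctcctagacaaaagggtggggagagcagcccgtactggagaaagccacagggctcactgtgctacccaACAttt
Gm23386: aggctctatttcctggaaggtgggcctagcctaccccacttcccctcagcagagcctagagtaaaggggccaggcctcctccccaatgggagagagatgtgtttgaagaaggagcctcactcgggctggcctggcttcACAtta
Gm25119: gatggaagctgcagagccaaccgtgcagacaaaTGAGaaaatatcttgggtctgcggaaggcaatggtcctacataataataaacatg
Gm25820 and Gm25058 differed at 6 bases (95.3% identity), and Gm22442 and Gm23386 at 8 bases (94.4%). Gm25058 and Gm23386, the copies outside genes, were at 0 in all 3 libraries in both tables. Gm25820 and Gm22442, the copies inside a host gene, had means of 54.0 and 620 alignment-free counts. Scarna13 likewise had 80.7% identity to Gm26489 and 80.4% to Gm25624, both outside genes and at 0 in every library in both tables. Gm25119 and Gm22416 were each given 0.5, 1 and 1 alignment-free counts in replicates 1, 2 and 3, an equal division between identical sequences. Other sets differ from these: Gm23119, which has no host, had a mean of 316 alignment-free counts, against 13.7 for Gm25913 in an intron of Cog5 (82.1% identity). The closest copy of Gm23119, Gm26183 (92.9% identity), also has no host and was at 0 in both tables. Scarna17, without a host as well, had a mean of 106, against 0.342 for its near copy Gm25443 (92.4% identity), which has no host either. Both IDs of Gm22813, in an intron of Mpped2, were at 0 in both tables.

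Of the 51 gene IDs, 29 lie in introns of a gene on the same strand, 2 lie within exons of long intergenic non-coding RNAs, and 20 have no gene on their strand. For 28 of the 31 with a host, the host is protein-coding, and none overlaps an annotated UTR. The members are 76 to 414 bases long with a median of 136, and 43 are under 200 bases. The libraries have a labelled size range of 250 to 400.

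The deposited tables give the RNA in 2 ways, as an alignment-based table of expected counts and TPM (a level per transcript length, scaled to the same total in each library) for each gene, and as an alignment-free table of estimated counts for each transcript. The alignment-based table has 81881 rows, of which the 55536 annotated genes were analysed, and the alignment-free table has 141864 transcripts. Totals behind CPM, shares and TPM include every row, so the 2 tables divide the reads among unlike sets. Alignment-free totals were 19789390, 31596771 and 30505141 counts in replicates 1, 2 and 3, and alignment-based totals 12699813, 18280033 and 18087091. A share of 3 counts, the limit that a count of 0 allows, came to between 1.64e-05% and 2.36e-05% of a library in the alignment-based table. Macrophage markers were present: 9 of 10 averaged at least 10 TPM (Csf1r 203 TPM, Cd14 208 TPM). Of 21 markers of other blood and stromal cells 18 averaged under 1 TPM, with Vwf at 49.3, Alas2 at 3.38 and Itga2b at 3.16 TPM, and their summed level was 51.6 to 60.4 TPM over the libraries, against 988 to 1328 TPM for the macrophage list. The part of other cells in the scaRNA levels was not tested.

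Nearly all alignment-based scaRNA counts came from 5 long members. Gm22009 (343 bases, in an intron of Kpna4, an importin), Scarna2 (414 bases, intergenic), Gm25395, Scarna13 and Scarna6 together held 98.9%, 99.6% and 99.4% of the alignment-based scaRNA counts in replicates 1, 2 and 3. Gm22009 and Scarna2 alone held 76.1% ± 9.48 (SD, n = 3). The 5 together held less in other units: 92.2%, 96.2% and 95.4% of alignment-free scaRNA counts in replicates 1, 2 and 3. Of the alignment-based scaRNA TPM they held 75.8%, 88.8% and 86.2%. With at least 10 expected counts in every library as the mark of detection, 9 of 51 gene IDs were detected: 5 of the 8 members of 200 bases or more and 4 of the 43 shorter ones. In all, 35 gene IDs had no count in any library and 12 had a count in every library.

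Gm22009 had the highest count of the class, with 5167, 20677 and 10898 expected counts in replicates 1, 2 and 3, or 407, 1131 and 603 CPM (counts scaled to the library total). It ranked 325th, 61st and 159th among the 55536 genes. Its 95% exact binomial intervals, which cover counting error only, were 396 to 418, 1116 to 1147 and 591 to 614 CPM, so the 3 libraries stood apart by more than counting error, replicate 2 highest and replicate 1 lowest.

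Scarna2, in human cells a C/D guide of the U2 snRNA that has its own promoter, lies at chr3:108554338-108554751 on the minus strand, 716 bases from the nearest gene, Gm43435. It had 2614, 15455 and 7842 expected counts in replicates 1, 2 and 3, or 206, 845 and 434 CPM. Replicate 2 was 4.11 times replicate 1, the widest range among the 5 long members, and the order of the libraries was that of Gm22009. The GENCODE transcript is 414 bases long and the RefSeq entry 61, so the counts are those of the longer model.

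Scarna13 had 60.6, 120 and 73.6 CPM in replicates 1, 2 and 3, again highest in replicate 2 and lowest in replicate 1. Gm25395, by contrast, had 192, 155 and 203 CPM and was lowest in replicate 2. Scarna6 had 44.1, 48.0 and 40.2 CPM, with the largest value 1.19 times the smallest.

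Gm25395 and Scarna6 are 7346 bases apart in the same host, yet Gm25395 had more counts in every library. The ratio of their alignment-based TPM was 4.03, 2.99 and 4.66 in replicates 1, 2 and 3, a mean of 3.89 ± 0.844 (SD, n = 3). In the alignment-free table the ratio was 3.77 ± 0.764 (SD, n = 3). The 2 RNAs differ little in length, so the ratio in counts (4.21 ± 0.911) was close to that in TPM.

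**Figure D1:**
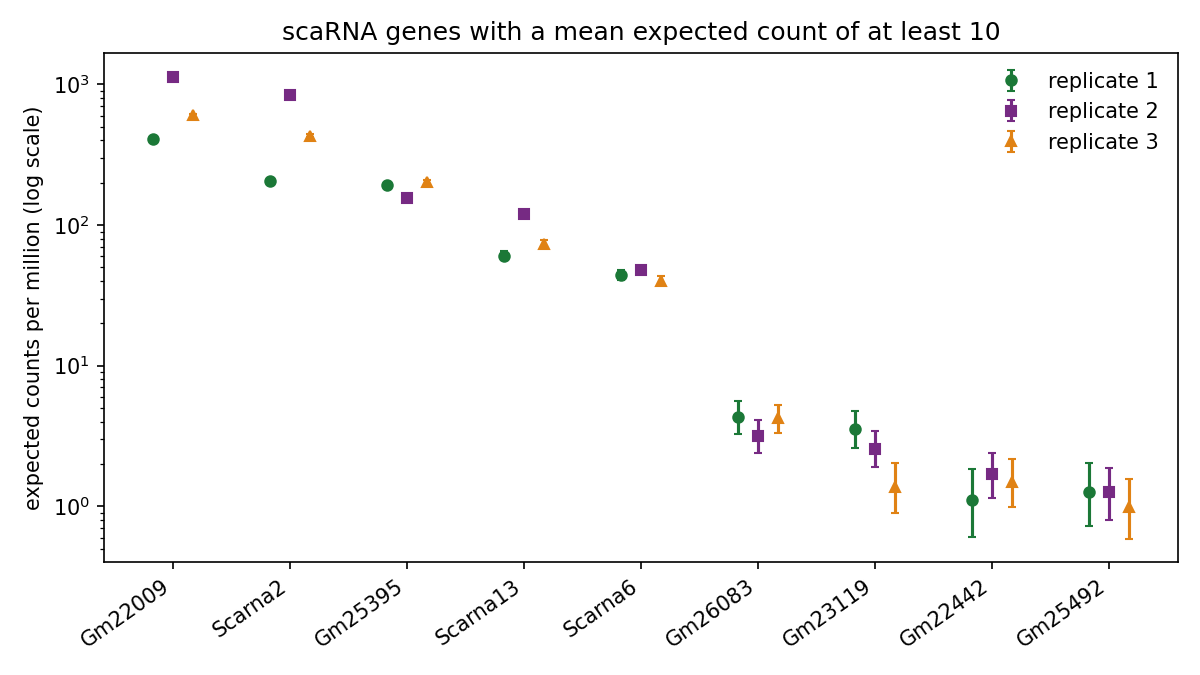
CPM from expected counts (log axis) of the 9 scaRNA genes with a mean of at least 10 counts, by library, with 95% exact binomial intervals for counting error. Gm22009, Scarna2 and Scarna13 are highest in replicate 2 and lowest in replicate 1, whereas Gm25395 and Scarna6 lie within 1.31-fold and 1.19-fold.

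The spread between replicates was put beside that of all genes, as the SD of log2 CPM (prior count 2) among genes with a mean of at least 10 counts. The 9 detected scaRNAs had a median SD of 0.37, against 0.29 for 13811 genes. This order rests on the libraries and the filter: without replicate 3 the medians were 0.21 for the scaRNAs and 0.29 for all genes, and with no minimum count 0.32 and 0.33. Scarna2 (SD 1.10) and Gm22009 (0.81) lay at the 98.9th and 96.7th percentile of all genes, Scarna13 (0.57) and Gm23119 (0.58) at the 88.3rd and 88.5th. Gm25395 (0.21), Scarna6 (0.15) and Gm25492 (0.14) lay at the 33.4th, 19.6th and 18.3rd. Since the RNA input was 1 µg, 250 ng and 500 ng in replicates 1, 2 and 3, the order of Gm22009, Scarna2 and Scarna13 is the reverse of the order of input, and input cannot be told apart from any other difference between the 3 libraries.

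As a class, scaRNAs took 0.0919%, 0.231% and 0.136% of expected counts in replicates 1, 2 and 3 (mean 0.153% ± 0.0710, SD, n = 3). Without Gm22009 and Scarna2, the class held 307, 333 and 326 CPM, so its difference between libraries lay in those 2 genes, which summed to 613, 1977 and 1036 CPM. The snoRNA genes, the related guides of ribosomal RNA, held 0.367%, 0.381% and 0.327% of counts. The snRNA genes, whose transcripts scaRNAs modify, held 0.263%, 0.121% and 0.225%, lowest in replicate 2, where scaRNAs were highest. In TPM, which divides by the length left for a fragment to start in, the scaRNA share was 0.954%, 1.86% and 1.20% (mean 1.34% ± 0.465, SD, n = 3). In the same unit, snoRNA genes held 40.9%, 46.5% and 41.6% and snRNA genes 15.8%, 7.83% and 13.4% in replicates 1, 2 and 3. In alignment-free TPM the means were 0.861% for scaRNA, 8.14% for snoRNA and 5.62% for snRNA genes.

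The unit matters more for these genes than for most. The effective length, the number of start positions that the fragment sizes allow, was 53.5 to 204 bases for members of 200 bases or more and at most 22.7 bases for shorter ones. It was under 5 bases in every library for 40 of 51 gene IDs and 0 in at least 1 library for 7 (Scarna17, Gm25443, Gm25119, Gm22416, Gm25825 and both IDs of Gm22813), which then could not be given a TPM. For a member of 120 to 150 bases a single expected count was worth 12 to 61.8 TPM, against 0.253 to 1.03 TPM for members of 200 bases or more. The typical expressed protein-coding gene, taken as the median of 8765 protein-coding genes with a mean of at least 1 TPM, stood at 7.56, 6.64 and 6.56 TPM.

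**Figure D2:**
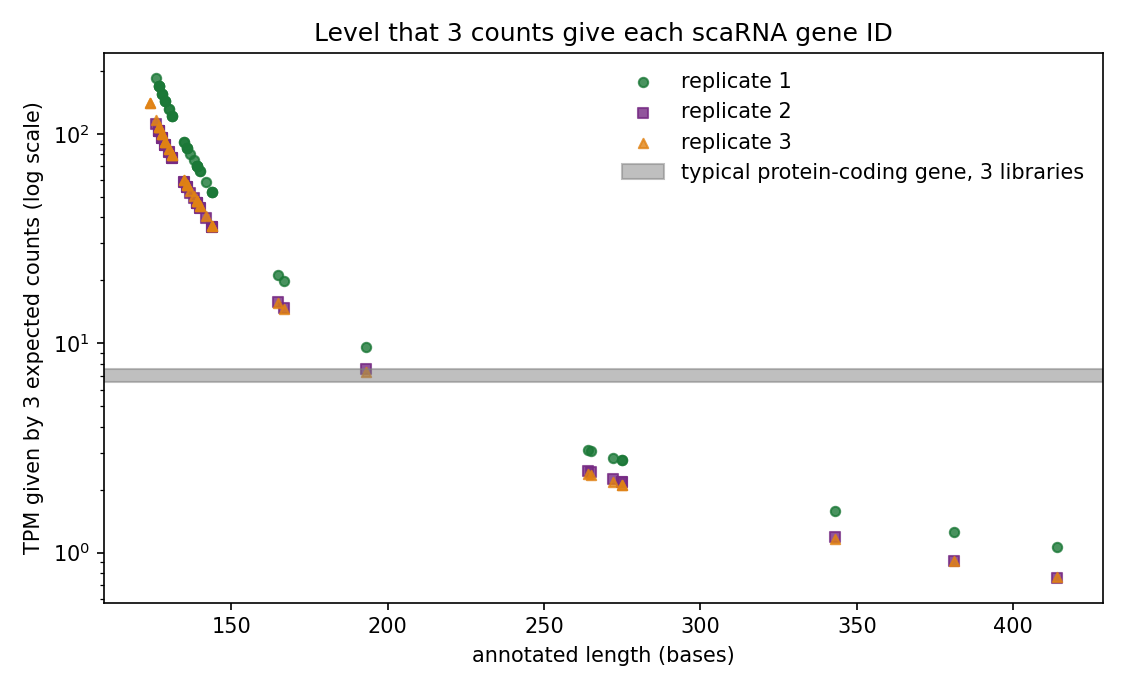
TPM that 3 expected counts give each scaRNA gene ID (log axis) against annotated length, by library, with the grey band at the typical protein-coding gene (6.56 to 7.56 TPM). Members of 167 bases or less lie above the band with only 3 counts, and members of 264 bases or more lie below it.

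Levels were then tested against that typical gene with limma, asking for more than a 2-fold difference in log2(TPM + 0.1) over the 3 libraries, with Benjamini-Hochberg adjustment over 18423 genes. Above it were 10 of 51 scaRNA gene IDs (19.6%), where 15.1% of all genes tested were higher. Gm22009 had 2719, 8145 and 4229 TPM in replicates 1, 2 and 3, a log2 level of 9.34 above the typical gene (SE 0.38, limma adjusted p = 6.3e-05). Gm25395 stood 8.39 above (SE 0.20, limma adjusted p = 3.7e-05), Scarna2 8.11, Scarna13 7.18 and Scarna6 6.45, all with a limma adjusted p of at most 0.00015.

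The other 5 gene IDs called higher had few counts. Gm26083 had 55.2, 58.2 and 76.3 expected counts in replicates 1, 2 and 3 and 176, 145 and 186 TPM. Gm23119 had 45, 47 and 25 counts, yet 997, 693 and 375 TPM, as its effective length was 2.96 to 3.26 bases. Gm25492, in an intron of Bud23, had 16, 23 and 18 counts and 764, 680 and 552 TPM on an effective length of 1.48 to 1.54 bases, so its TPM exceeded that of Scarna6 in replicate 1 (572) with far fewer counts than the 560 of Scarna6. Gm22442 had 14, 31 and 27 counts and 247, 372 and 328 TPM, and the shorter ID of Gm25820 reached 113, 104 and 71.8 TPM from 2, 3 and 2 counts. With CPM, which divides by no length, Gm26083, Gm23119, Gm22442 and Gm25492 lay below the typical gene (log2 levels of -1.67, -2.38, -3.07 and -3.33), and only the 5 long members were called higher.

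The fit called 35 of 51 gene IDs lower (68.6%), where 52.5% of all genes tested were lower, and every one of the 35 was at 0 in all 3 libraries. All members were kept in the test, whereas other genes needed a mean of 0.1 TPM to enter it, so these shares are not like for like. With all 55536 annotated genes in the test, 11 members were higher (21.6%; 5.08% of all genes) and 39 lower (76.5%; 85% of all genes). This call carries little for most of them. For 25 of the 35, 3 counts would give a level above the typical gene in every library, and 7 more had an effective length of 0 in at least 1 library, so a lower level was not detectable at this depth. The remaining 3 were the intergenic Gm25624, Gm26489 and Gm27414 of 264 to 381 bases. For these, 3 counts would give 0.911 to 3.10 TPM, below the typical gene (limma adjusted p = 0.00029 each). All 35 share that adjusted p, which holds no spread of their own counts, as these were 0 throughout. The 6 gene IDs called neither way had at most 5 counts in a library and included Scarna3a, with 0, 1 and 0 counts. The median log2 level was -6.13 over the 51 gene IDs, which is the value of 0 counts, and -1.75 over all genes tested.

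The alignment-free table gave counts to many more of the short members. It held at least 10 counts in every library for 17 gene IDs, against 9 in the alignment-based table, and 12 of the 17 were under 200 bases. In all, 33 gene IDs had a count in some library, against 16, and 20 gene IDs at 0 throughout the alignment-based table were above 0 in the alignment-free one. For the 5 long members the tables were close, with alignment-free counts 1.03 to 1.30 times the alignment-based ones in each library.

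Gm22442 had 398, 935 and 528 alignment-free counts in replicates 1, 2 and 3, against 14, 31 and 27 alignment-based counts, 4.68 ± 0.34 higher on the log2 scale (SD, n = 3). Gm23119 had 297, 375 and 275 alignment-free counts, against 45, 47 and 25, a log2 ratio of 3.06 ± 0.37 (SD, n = 3). Gm25492 had 26, 90 and 66, against 16, 23 and 18. In each of these, every library had the higher count in the alignment-free table.

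Of the members at 0 throughout the alignment-based table, 7 had at least 10 alignment-free counts in every library. Scarna17, in human cells a C/D guide of the U4 snRNA, had 75, 129 and 115 alignment-free counts in replicates 1, 2 and 3, where the alignment-based table gave it an effective length of 0. It lies next to Gm23119 on the same strand, with neither in a host gene. Gm23751, in an intron of the chromatin remodeller Chd4, had 54, 39 and 51 counts, and Gm26039, antisense to the nucleoporin gene Nup54, had 24, 40 and 58. The longer IDs of Gm25820, Gm23370 and Gm22897 and Gm24644 in Fbxo3 make up the rest. For Gm25820 the 2 tables placed the counts on different IDs of the same locus: the longer ID had 42.7, 60.7 and 58.8 alignment-free counts and no alignment-based counts, and the shorter ID had no alignment-free counts and 2, 3 and 2 alignment-based counts.

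The other members with a Scarna symbol had few counts or none. Scarna3a, in human cells an H/ACA guide, lies in an intron of Cop1 and had 6, 17.8 and 21 alignment-free counts in replicates 1, 2 and 3. Scarna3b, 85.7% identical to it and in an intron of Dcaf5, had 4, 0 and 4. Scarna8, an H/ACA guide in human cells that lies in an intron of Haus6, had 0, 0 and 1 alignment-free counts and none in the alignment-based table. In both tables, 15 gene IDs were at 0 in every library, 10 of the 20 without a host and 5 of the 31 with one. These 15 include a member of 127 bases with the symbol Mir1839, whose transcript bears the scaRNA type. It overlaps a separate gene of the same symbol, which RefSeq lists as a microRNA of 73 bases.

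**Figure D3:**
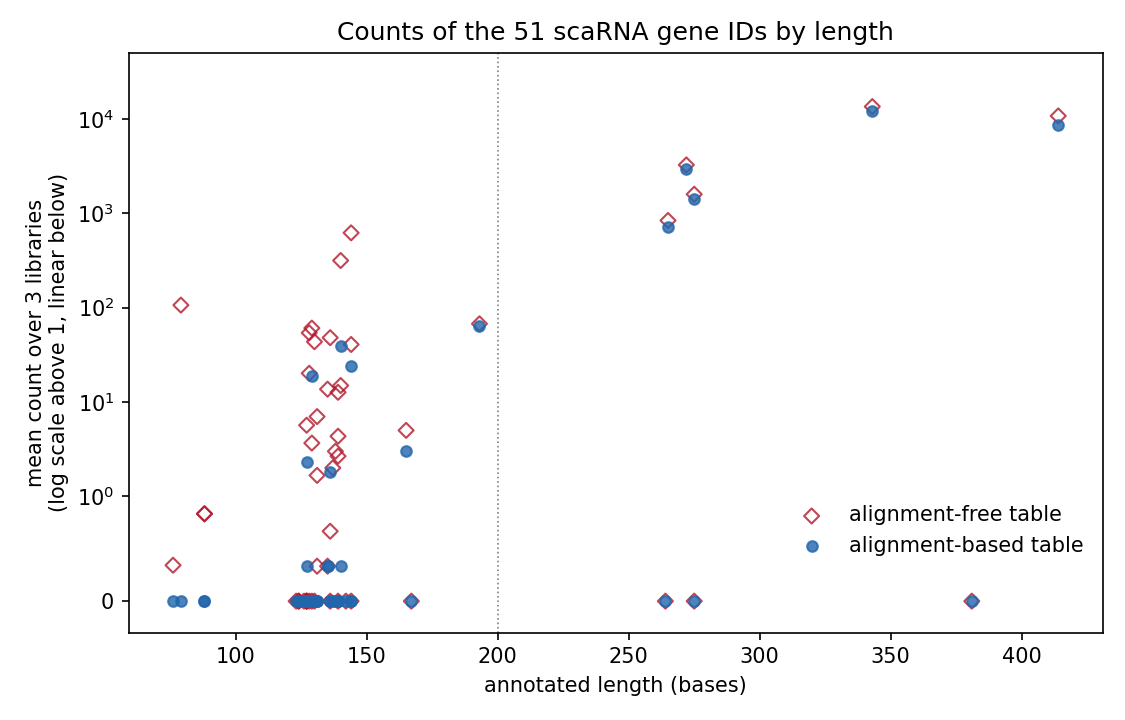
Mean count over 3 libraries of each of the 51 scaRNA gene IDs (log axis above 1, linear below) against annotated length, with alignment-free counts as open diamonds and alignment-based counts as filled circles. The 5 long members coincide in both tables, whereas members under 200 bases (left of the dotted line) often lie higher in the alignment-free table, and 3 members of 264 bases or more are at 0 in both.

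With alignment-free TPM in the same test, over 28508 genes, 15 of 51 gene IDs were higher (29.4%; 16.4% of all genes) and 24 lower (47.1%; 48.2% of all genes). Among the 15, 9 were also higher in the alignment-based table, and the other 6 were lower there: Scarna17 (log2 level 5.07), the longer ID of Gm25820 (3.75), Gm23751 (3.41), the longer ID of Gm23370 (3.32), Gm26039 (2.91) and the longer ID of Gm22897 (2.34), each with a limma adjusted p of at most 0.00091. These 6 are all under 200 bases, and few counts gave short members a high TPM in this table too. The typical gene stood at 8.97, 5.75 and 7.09 alignment-free TPM in replicates 1, 2 and 3. In replicate 2, Gm23557 (138 bases) had 6.505 TPM from 6 counts. The longer ID of Gm22897 was called higher with a mean of 20.1 counts, or 38.9 TPM. Whether the alignment-free calls hold without a length division was not tested. For Gm25492 the log2 level was 3.74 in the alignment-free table, against 6.56 in the alignment-based one. Gm22442 moved the other way, with 6.84 against 5.47.

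Most detected scaRNAs stood above the gene that hosts them. Of the 9 detected, 7 have a host, and in all 7 the alignment-based TPM of the scaRNA was higher than that of its host. The median log2 difference was 5.92, the value of Gm26083 and Snhg20. These 7 were picked by their own counts, so the filter itself favours a scaRNA above its host. For Gm25492, a single count was worth 29.5 to 47.8 TPM, above the 11.0 to 19.3 TPM of its host Bud23. With counts divided by annotated length in place of effective length, 5 of the 7 stood above their host, and Gm22442 and Gm25492 lay below it (log2 differences of -2.72 and -0.20). Gm22009 stood 7.57 ± 1.00 above Kpna4 (SD, n = 3), which had 30.3, 23.2 and 19.3 TPM in replicates 1, 2 and 3. Kpna4 was thus lowest in replicate 3 and highest in replicate 1, where Gm22009 was lowest.

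Atg16l1 had 19.4, 27.3 and 16.4 TPM, and its 2 intronic RNAs stood 6.83 ± 0.53 (Gm25395) and 4.89 ± 0.21 (Scarna6) above it on the log2 scale. Gm26083 stood 5.92 ± 0.31 above Snhg20, and Gm22442 2.39 ± 0.19 above Chd3 (SD, n = 3 each), a direction that turns when annotated length is used. Snhg10, the host of Scarna13, is listed at 0 in all 3 libraries of the alignment-based table and at 0.371, 0.656 and 0.205 TPM in the alignment-free one, where Scarna13 had 477, 609 and 460 TPM. Gm25492 stood 5.52 ± 0.19 above Bud23 in the alignment-based table, but -0.29 ± 0.30 in the alignment-free one (SD, n = 3 each), where Bud23 had 86.5, 121 and 157 TPM. The host's TPM counts its exons, and reads of an unspliced host intron that cover a scaRNA cannot be told apart from the scaRNA itself. Gm26083 lies within an exon of Snhg20, so reads of spliced Snhg20 over it cannot be told apart from Gm26083 either.

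Across the 26 scaRNA symbols with a host, alignment-free levels of scaRNA and host on the log2(TPM + 0.1) scale had a Pearson r of 0.60 and a Spearman rho of 0.64, given as a description across genes that share libraries, with Atg16l1 entered for both of its RNAs. For symbols with 2 gene IDs, only the ID with the higher alignment-free level was entered, a choice made on the plotted value itself. The 13 scaRNAs with at least 10 alignment-free counts in every library had hosts with a median of 38.7 TPM (0.377 to 248), and the other 13 had hosts with a median of 3.81 TPM (0 to 134). High host levels did not always go with high scaRNA levels: the log2 difference of Gm23751 from Chd4 was -1.69 ± 0.56, with Chd4 at 306, 174 and 286 TPM in replicates 1, 2 and 3. For Scarna3a and Cop1 it was -2.75 ± 0.73 (SD, n = 3 each).

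**Figure D4:**
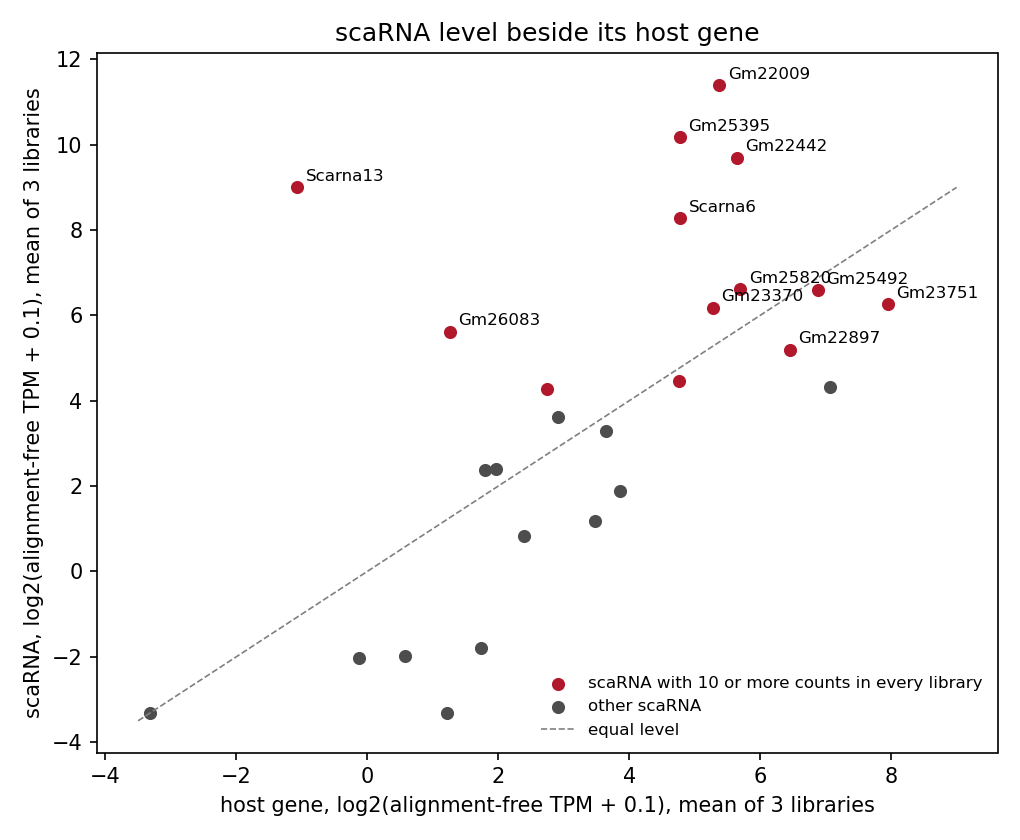
Alignment-free level of the scaRNA (vertical) and of its host gene (horizontal), each as the mean log2(TPM + 0.1) of 3 libraries, for 26 scaRNA symbols. Red points, with at least 10 alignment-free counts in every library, include Gm22009, Gm25395, Gm22442, Scarna6, Scarna13 and Gm26083 well above the dashed line of equal level, whereas Gm23751 and Gm22897 lie below it.

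The protein genes of the Cajal body and of scaRNA particles gave another picture from the long scaRNAs. Of 34 genes listed, none was higher than the typical protein-coding gene by limma (15.1% of all genes tested were). Of the same genes 20 were lower (58.8%; 52.5% of all genes) and 14 were neither, so their share of lower calls lay near that of all genes. The genes tested include non-coding ones, and the share over protein-coding genes alone was not computed. At an unadjusted p under 0.05 the count was also 0, and with no 2-fold band 5 of the 34 were higher (Nop56, Ice1, Tgs1, Nop58 and Ell). The share of all genes called higher with no band is not given here, so these 5 cannot be set against it. The list's median log2 level was -2.12, against -1.75 over all genes tested.

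Among the proteins of C/D particles, Nop56 had 15.5, 17.7 and 14.5 TPM in replicates 1, 2 and 3, the highest of the list in the alignment-based table. In the alignment-free one the log2 levels of Nop58 (1.72), Smn1 (1.03) and Ell (0.98) exceeded that of Nop56 (0.90). Nop58, its partner, had 10.5 TPM ± 1.62 (SD, n = 3), and fibrillarin (Fbl), the methylase, 6.25 ± 0.80. Of the H/ACA proteins, Nhp2 had 8.54 TPM ± 3.47 and dyskerin (Dkc1), the pseudouridine synthase, 3.75 ± 1.92, both called neither way. Coilin (Coil) had 0.94, 0.54 and 0.56 TPM and a log2 level of -3.20 (limma adjusted p = 0.00042), and Wrap53 had 0.88, 0.47 and 0.43 TPM and a log2 level of -3.39 (limma adjusted p = 0.00042).

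Other high members were Ice1 with 14.9 TPM ± 1.83 and Ell with 9.96 ± 2.52 (SD, n = 3 each). Both are parts of the little elongation complex, which acts in the transcription of snRNA genes. Tgs1, which makes the trimethyl cap of snRNAs, had 10.9 TPM ± 4.07 (SD, n = 3). The lowest 4 by mean alignment-based TPM were Gemin6, Gemin4, Gemin8 and Ddx20, parts of the SMN complex that assembles snRNA particles, with means of 0.0367, 0.103, 0.367 and 0.42 TPM. Gemin6 had 0, 0 and 0.11 TPM. Gemin8 was not called lower in the alignment-free table (log2 level -0.87, limma adjusted p = 0.898, against -4.08 in the alignment-based table). These are levels of chromatin RNA, and the amount of cytoplasmic messenger RNA or of protein was not measured.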

How the data were processed

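RNA from the chromatin fraction was sequenced in 3 libraries of 1 group. Per the file headers and labels, the authors deposited for each library an alignment-based gene table with expected counts, effective lengths and TPM, and an alignment-free transcript table with estimated counts and TPM, on mm10 (GRCm38) with GENCODE M21. No source used here names the programs. Expected counts were used as deposited for shares and CPM. TPM was analysed as log2(TPM + 0.1) minus the median, in that library, of protein-coding genes off the mitochondrial genome averaging at least 1 TPM. It was tested with limma 3.58.1 (treat, 2-fold band, trended variance, two-sided) in R 4.3.3 over genes with a mean of at least 0.1 TPM plus both lists, at a Benjamini-Hochberg adjusted p under 0.05. Log2 CPM came from edgeR 4.0.16 with a prior count of 2, with DESeq2 1.42.0 size factors as an alternative. Alignment-free transcript values were summed per gene. Intervals are 95% exact binomial (Clopper-Pearson, scipy 1.17.1) and cover counting error only. Hosts are genes that contain the member on its strand in GENCODE. Motifs were searched as exact letters, and identity is 1 minus the edit distance over the longer length. The promoter windows are the first 136 bases of RefSeq promoter sequences (GRCm38.p6). The members and lists were chosen with earlier results of these data known. The rule for named genes was every scaRNA with a mean of at least 50 expected counts, every symbol starting with Scarna, and the 6 highest and 4 lowest of the protein list. Other scaRNAs and proteins are named because a count or comparison turned on them, chosen after their values were seen. Alternatives are other pseudocounts, filters, bands, reference genes, length scalings, the alignment-free table and leaving out each replicate.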

Additional observations from a re-analysis of the deposited data

How the results depend on the processing

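No paired analysis was possible because there is 1 group. Of the 51 scaRNA gene IDs, 10 were higher and 35 lower; with CPM 5 were higher, and with members kept at a mean of at least 1 TPM none of the 16 left was lower, because those at 0 are removed. Leaving out a replicate gave 10 to 11 higher and 35 to 37 lower. Of the 34 protein genes, 0 were higher in the main test, against 5 with no band, 2 with counts per annotated length, 2 with CPM and 1 (Nop58) with the alignment-free table. Lower were 20, against 7 of 22 at a mean of at least 1 TPM, 12 with a 4-fold band, 13 with the alignment-free table, 25 with no band and 27 with reference genes of at least 5 TPM, and 19 to 20 without a replicate. Each setting can also change the calls of all genes. Their shares are given only for the main test, the alignment-free table and the test of all annotated genes. The counts under other settings therefore cannot be read as changes particular to the scaRNA or protein genes. The scaRNA share of TPM was 1.34%, 0.861% in the alignment-free table and 1.08% to 1.53% without a replicate. Its share of counts was 0.114% to 0.184% without a replicate. The number detected was 9, 17 with the alignment-free table and 9 with any replicate left out. The median SD was 0.21 to 0.33 without a replicate. The median log2 difference between scaRNA and host was 5.92, 4.37 in the alignment-free table, 2.93 with counts per annotated length and 5.77 to 6.08 without a replicate. The values 5.92, 4.37 and 2.93 are those of Gm26083 and Snhg20. Reversed in sign with CPM were Gm26083 (-1.67), Gm23119 (-2.38), Gm22442 (-3.07) and Gm25492 (-3.33), which follows from leaving out the short lengths. The cause of the other differences was not tested. Of the 43 members under 200 bases, 32 had no alignment-based count, and the effective length was under 5 bases in every library for 40 of the 51 members.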
